A study of Mus musculus with 16 samples.

Results

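Gene expression in the tip of the mouse forelimb was compared between its ectoderm and its mesoderm in how it changed over 2 days, from E10.5 to E12.5, where E is the embryonic day. The quantity described is a difference of differences: the change from E10.5 to E12.5 in ectoderm minus the same change in mesoderm, for each gene. It rests on 8 of the 16 libraries of the series, chosen by their labels alone: 2 of ectoderm and 2 of mesoderm at E10.5, and 2 of each at E12.5. The other 8 libraries (E9.5 and E11.5) served for the scaling and, at E11.5, for a split of the interval into days. All embryos were of the B6 strain, with no mutation, transgene or treatment named in the labels. For each stage and replicate number, 1 batch of embryos supplied both layers: a distal strip of the forelimbs was held in trypsin on ice and the ectoderm was then pulled from the mesoderm with forceps. Replicate 1 and replicate 2 libraries were purified with different RNA kits, so the replicate number marks the kit and, within a stage, the embryo batch. It was kept in the fit as a single block shared by all stages. A block for the embryo batch of each stage was fitted only as an alternative.

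The limb ectoderm is the epithelium that covers the bud. Its thickened rim, the apical ectodermal ridge, secretes fibroblast growth factors that keep the underlying mesenchyme growing, and the rest of the sheet goes on to form epidermis, with keratin filaments, desmosomes and hemidesmosomes. In the same period the mesenchyme of the hand plate condenses into the cartilage of the digits, while the tissue between the digits turns on genes of bone morphogenetic protein (BMP) and retinoic acid signalling. Because both layers exchange signals, a receptor or an antagonist can change in one layer while its ligand changes in the other.

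Total gene counts of the 8 libraries ran from 12035006 to 30438214. Levels below are CPM, counts divided by each library's TMM-scaled total, and paired values are replicate 1 first and replicate 2 second. The libraries hold bulk RNA, so fewer cells of a type and less RNA per cell cannot be told apart. Each layer held low levels of markers of the other. Over 10 mesenchyme markers, the median level in ectoderm was 10.1 and 10.3 percent of that in the mesoderm of the same embryos at E10.5, and 3.07 and 3.41 percent at E12.5. Over 18 surface epithelium markers, the median level in mesoderm was 1.53 and 0.878 percent of that in ectoderm at E10.5, and 0.946 and 0.55 percent at E12.5. Genes whose mean in one layer was under 15 percent of the other layer's at both stages are called trace genes below. In the E10.5 ectoderm libraries the endothelial markers had a median of 1.04 and 3.73 percent of the mesoderm level. The erythroid markers had 1.5 and 4.78 percent there, and the macrophage markers 2.44 and 6.15 percent. Whether low marker levels came from carried-over cells or from the layer's own expression was not tested. The part of these low levels in the results was not tested beyond the counts given with and without trace genes.

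Of 14977 genes tested, the change differed between the layers in 2062 (13.8 percent) by edgeR's quasi-likelihood test at an adjusted p under 0.05. The change was more positive in ectoderm in 804 genes (5.37 percent) and more negative in 1258 (8.4 percent). Scaling by library size alone gave 602 and 1490. For comparison, 2568 genes (17.1 percent) changed in ectoderm, 1360 up (9.08 percent) and 1208 down (8.07 percent), and 5127 genes (34.2 percent) changed in mesoderm, 2749 up (18.4 percent) and 2378 down (15.9 percent). Among the 804 genes the median change was 0.21 in ectoderm and -0.57 in mesoderm on the log2 scale. Among the 1258 it was -0.5 in ectoderm and 1.01 in mesoderm. These medians describe genes that were chosen by the same test.

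Most called genes changed in 1 layer only by this threshold. The commonest pattern, in 617 genes, was a rise in mesoderm with no called change in ectoderm, followed by a fall in mesoderm with none in ectoderm in 481. A fall in ectoderm with none called in mesoderm was found in 276 genes and a rise in ectoderm in 171. The layers changed in opposite directions in others: 210 genes fell in ectoderm and rose in mesoderm, and 66 rose in ectoderm and fell in mesoderm. In 146 genes the order of the layers turned over from higher to lower in ectoderm between E10.5 and E12.5, with both layer differences called, and in 89 it turned from lower to higher. Over all tested genes the layers differed in 51.8 percent at E10.5 and in 45.9 percent at E12.5.

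Without the replicate block the test called 289 genes (57 more positive and 232 more negative in ectoderm), and each of these was among the 2062. With 1 library left out, the count was 1103 or 1070 without ectoderm E10.5 replicate 1 or 2, 935 or 1405 without ectoderm E12.5 replicate 1 or 2, 1032 or 1486 without mesoderm E10.5 replicate 1 or 2, and 1217 or 2537 without mesoderm E12.5 replicate 1 or 2. Unless an exception is given, a gene named below with its difference was also called in each of these 8 fits. A named gene's difference is the change in ectoderm minus the change in mesoderm on the log2 scale, with its standard error, and each adjusted p is from edgeR's quasi-likelihood test with Benjamini-Hochberg adjustment over all tested genes. Leaving out trace genes, a step chosen after seeing the data, left 1886 called genes, 733 more positive and 1153 more negative.

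**Figure D1:**
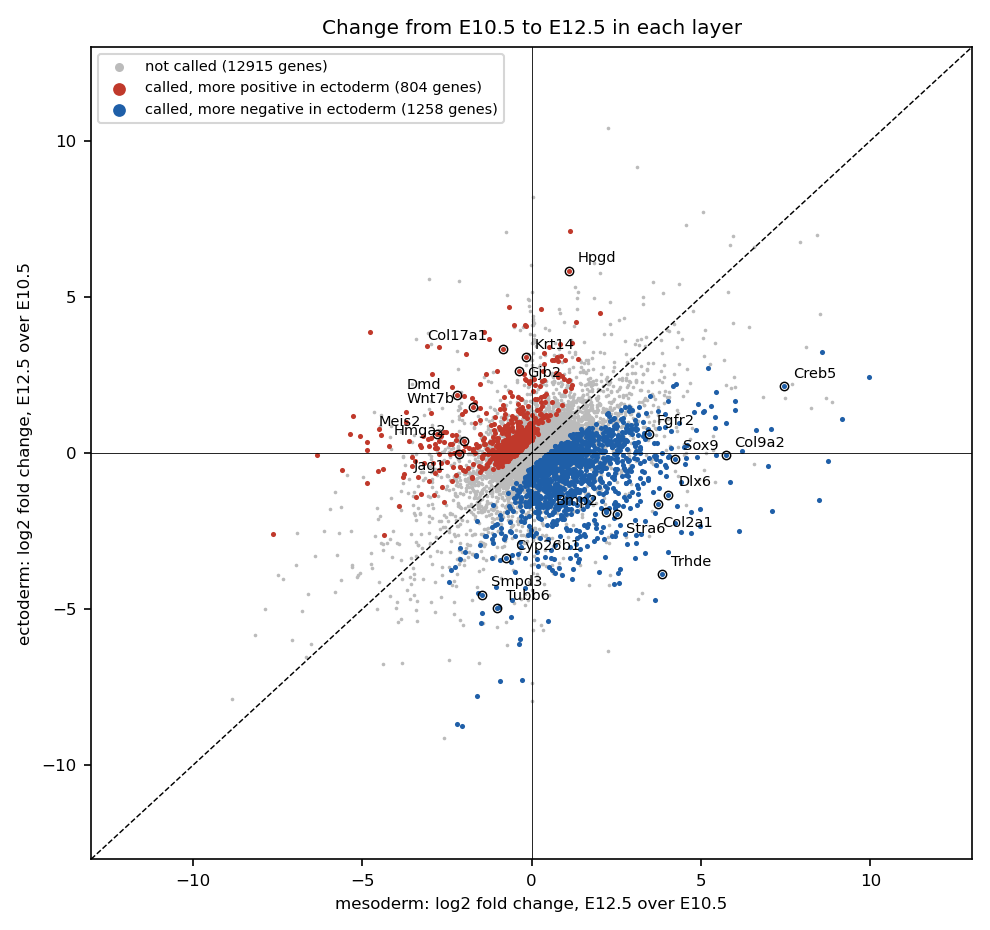
Each point is 1 of 14977 tested genes, with the fitted log2 fold change from E10.5 to E12.5 in mesoderm on the horizontal axis and in ectoderm on the vertical axis. Genes off the dashed diagonal changed differently in the 2 layers. The 804 genes called more positive in ectoderm lie above it and the 1258 called more negative lie below it. Col17a1 and Gjb2 are among the former, and cartilage genes such as Col9a2 and Sox9 are among the latter, to the right.

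**Figure D2:**
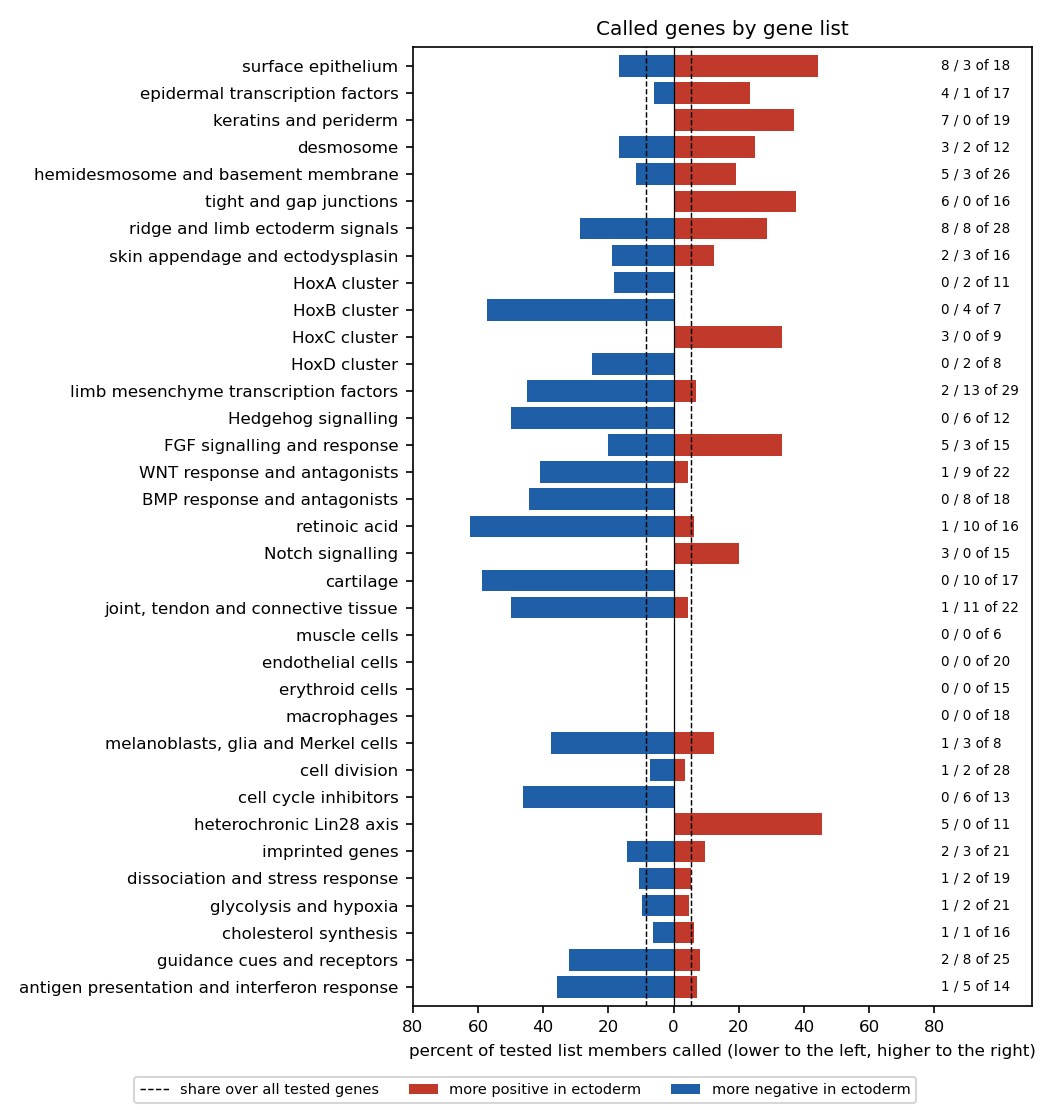
Bars give the percent of tested members of each gene list that were called, more positive in ectoderm to the right and more negative to the left, with the counts printed beside them. Dashed lines mark the shares over all tested genes, 5.37 and 8.4 percent. Surface epithelium, keratin, junction and HoxC lists extend to the right, and the retinoic acid, cartilage, Hedgehog and BMP lists extend to the left.

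Without the replicate block the counts of most lists were lower. No gene was then called in the lists of desmosome, Notch, HoxA, HoxB, HoxD, joint and tendon, cell cycle inhibitor, antigen presentation, skin appendage, imprinted, cell division, stress response, glycolysis and cholesterol genes. The cartilage list and the ridge signals each gave 6 genes more negative in ectoderm, guidance cues 5, limb mesenchyme factors 4, WNT genes 3, and BMP, Hedgehog and retinoic acid genes 2 each. Surface epithelium, epidermal transcription factors and junctions each gave 3 more positive, the FGF list 2 in each direction, and the keratin, hemidesmosome, HoxC, Lin28 and limb mesenchyme lists 1 more positive each. The melanoblast list gave 1 more positive and 2 more negative.

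The attachment of the epithelium to its basement membrane and its keratin filaments held several of the genes called more positive in ectoderm. Col17a1, the transmembrane collagen of the hemidesmosome (chr19:47646343-47692094, mm10), measured 111 and 117 CPM at E10.5 and 1252 and 1071 CPM at E12.5 in ectoderm. Mesoderm held 2.18 and 2.266 CPM at E10.5 and 1.37 and 1.02 CPM at E12.5 (difference 4.20 ± 0.24, adjusted p = 7.89e-05). Ectoderm rose (log2 change 3.34 ± 0.11), and the trace level in mesoderm fell. Krt5, a keratin of basal epidermal cells, measured 1031 and 756 CPM at E10.5 and 2959 and 1563 CPM at E12.5 in ectoderm. Mesoderm held 15.8 and 6.18 CPM at E10.5 and 4.85 and 0.318 CPM at E12.5 (difference 3.30 ± 0.55, adjusted p = 0.00639). Its partner Krt14 measured 137 and 141 CPM at E10.5 and 1620.3 and 908 CPM at E12.5 in ectoderm. Mesoderm held 2.8 and 0.343 CPM at E10.5 and 2.65 and 0.254 CPM at E12.5 (difference 3.25 ± 0.79, adjusted p = 0.03). Col7a1, the collagen of anchoring fibrils, measured 15.3 and 37.3 CPM at E10.5 and 193 and 175 CPM at E12.5 in ectoderm. Mesoderm held 9.24 and 15.9 CPM at E10.5 and 17.2 and 13.6 CPM at E12.5 (difference 2.48 ± 0.47, adjusted p = 0.0116). All ectoderm values at E12.5 lay above those at E10.5 for these 4 genes, and in mesoderm the stages overlapped for Krt14 and Col7a1. Of the 26 tested hemidesmosome and basement membrane genes, 5 were called more positive in ectoderm and 3 more negative, among them Nid2, a basement membrane linker made mainly by the mesoderm here (21.7 and 22.1 CPM, then 7.45 and 6.15 CPM in ectoderm against 311 and 213 CPM, then 253 and 236 CPM in mesoderm, difference -1.62 ± 0.21, adjusted p = 0.0021). Nid2 was a trace gene in ectoderm, where the mesenchyme markers fell over the same stages, from 10.1 and 10.3 to 3.07 and 3.41 percent of their mesoderm level. Among the remaining calls, 2 positive ones and 1 negative one were trace genes in mesoderm. The median difference of this list was 0 against 0.02 over all genes. Leaving out single libraries gave 2 to 6 more positive (2 without ectoderm E10.5 replicate 1 or ectoderm E12.5 replicate 2 or mesoderm E10.5 replicate 1) and 1 to 4 more negative (1 without ectoderm E10.5 replicate 2 or ectoderm E12.5 replicate 1 or mesoderm E10.5 replicate 1). The Krt14 call did not hold in 4 of the 8 fits with 1 library left out: its adjusted p was 0.0536 without ectoderm E10.5 replicate 1, 0.0715 without ectoderm E12.5 replicate 1, 0.0545 without ectoderm E12.5 replicate 2 and 0.734 without mesoderm E10.5 replicate 1.

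Of the 19 tested keratin and periderm genes, 7 were called more positive in ectoderm (the background is 5.37 percent) and none more negative, with a median difference of 1.81. Besides Krt5 and Krt14 they included the plakin Ppl, part of the cornified envelope (108.5 and 114 CPM, then 146 and 156 CPM in ectoderm, 1.71 and 0.755 CPM, then 0.221 and 0.0636 CPM in mesoderm, difference 3.497 ± 0.57, adjusted p = 0.00624) and the 14-3-3 protein Sfn, a marker of stratified epithelium (354 and 252 CPM, then 476 and 264 CPM in ectoderm, 4.04 and 1.1 CPM, then 0.441 and 0.191 CPM in mesoderm, difference 3.26 ± 0.48, adjusted p = 0.00373). In both the mesoderm fell and the ectoderm stages gave no called change. The keratins of simple epithelium and periderm went the other way within ectoderm: Krt8 fell from 313 and 187 to 34.05 and 41.4 CPM (log2 change -2.65 ± 0.32) and Krt18 from 266 and 175 to 56.4 and 54.6 CPM (log2 change -1.95 ± 0.19). Their difference between layers was not called (difference -1.26 ± 0.65, adjusted p = 0.24 for Krt8). Of the 7 called genes, 6 were trace genes in mesoderm, where 11 of 18 surface epithelium markers fell as well. The part of this fall in the calls was not tested. Dropping each library in turn gave 3 to 6 more positive (3 without mesoderm E10.5 replicate 1, 4 without ectoderm E10.5 replicate 1 or mesoderm E12.5 replicate 1) and 0 to 1 more negative. Keratin genes have close copies in the genome, and reads shared between copies could move counts from one to another.

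Of 16 gap and tight junction genes, 6 were called, each more positive in ectoderm, with a median difference of 0.8. Gjb2, a connexin of the epidermis, measured 45.9 and 44.9 CPM at E10.5 and 336 and 233 CPM at E12.5 in ectoderm. Mesoderm held 2.65 and 2.2 CPM at E10.5 and 1.68 and 2.16 CPM at E12.5 (difference 3.005 ± 0.30, adjusted p = 0.000678). The rise came in ectoderm alone by the test. Gja1, the connexin found in both layers, measured 1006 and 1107 CPM at E10.5 and 1229 and 1356 CPM at E12.5 in ectoderm. Mesoderm held 468 and 507 CPM at E10.5 and 324 and 336 CPM at E12.5 (difference 0.85 ± 0.11, adjusted p = 0.00206). It rose in ectoderm and fell in mesoderm, by small steps that left no overlap between the stages in either layer. Cldn6 and Cldn4 encode claudins of tight junctions. Cldn6 fell in both layers: it measured 358 and 257 CPM, then 239 and 186 CPM in ectoderm, and 4 and 2.61 CPM, then 0.221 and 0.0636 CPM in mesoderm (difference 3.87 ± 0.33, adjusted p = 0.000333). Cldn4 measured 203 and 134 CPM, then 158 and 95.5 CPM in ectoderm and 2.4 and 1.1 CPM, then 0.265 and 0 CPM in mesoderm (difference 3.10 ± 0.51, adjusted p = 0.00598). Cldn4 fell in mesoderm with no called change in ectoderm. Of the 6 calls, 5 were trace genes, all but Gja1. The count was 5 to 7 more positive with 1 library left out.

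The surface epithelium list had 8 of 18 genes called more positive in ectoderm and 3 more negative, with a median difference of 0.54. This balance turned with limma on log2(FPKM + 1), which called 1 more positive and 5 more negative, and with log2(FPKM + 0.1) it was 4 and 3. All 8 of the former were trace genes that fell in mesoderm. Esrp1, an epithelial splicing factor, measured 248 and 265 CPM at E10.5 and 303 and 312 CPM at E12.5 in ectoderm. Mesoderm held 3.46 and 1.99 CPM at E10.5 and 0.265 and 0.318 CPM at E12.5 (difference 3.56 ± 0.40, adjusted p = 0.00109). St14, a membrane protease, fell in both layers, from 508 and 339 to 198 and 126 CPM in ectoderm and from 5.31 and 2.81 to 0.485 and 0.254 CPM in mesoderm (difference 2.03 ± 0.26, adjusted p = 0.00205). On log2(FPKM + 1) values, which damp such low levels, its difference was -0.54 by limma (adjusted p = 0.119). The 3 genes that went the other way, Cdh3, Spint1 and Spint2, rose in mesoderm. Spint2, a protease inhibitor, measured 310.5 and 234 CPM, then 258 and 198 CPM in ectoderm and 7.64 and 4.12 CPM, then 41.6 and 18 CPM in mesoderm (difference -2.55 ± 0.28, adjusted p = 0.001). Cdh3, P-cadherin, was well expressed in both layers, with 803 and 668 CPM, then 708 and 695 CPM in ectoderm and 270.2 and 215 CPM, then 693 and 456 CPM in mesoderm (difference -1.29 ± 0.18, adjusted p = 0.00294). At E12.5 the mesoderm replicate 1 library nearly reached the ectoderm level. Leaving out single libraries gave 5 to 8 more positive (5 without mesoderm E10.5 replicate 1) and 3 to 4 more negative.

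Among 17 epidermal transcription factors, 4 were called more positive in ectoderm and 1 more negative. Of the 4, 2 were trace genes in mesoderm, Trp63 among them. Trp63 (p63), a factor needed for stratified epithelium, measured 516 and 514 CPM at E10.5 and 652 and 731 CPM at E12.5 in ectoderm. Mesoderm held 6.95 and 3.57 CPM at E10.5 and 1.37 and 0.89 CPM at E12.5 (difference 2.66 ± 0.38, adjusted p = 0.00322). The ectoderm change was not called. Tfap2c was the higher in mesoderm at E10.5: it measured 48.3 and 46.7 CPM, then 39.5 and 39.2 CPM in ectoderm, and 97.97 and 82.6 CPM, then 4.99 and 12.7 CPM in mesoderm (difference 3.16 ± 0.42, adjusted p = 0.00238). Its order between the layers turned over, with no called change in ectoderm. With 1 library left out, 3 to 5 genes were more positive and 0 to 4 more negative, with 0 in every such fit but those without ectoderm E12.5 replicate 2 and mesoderm E12.5 replicate 2, and 4 in the latter. In the desmosome list 3 of 12 genes were called more positive and 2 more negative, and all but 1 of the negative calls were trace genes in mesoderm. Perp, a desmosomal membrane protein, measured 393 and 315 CPM, then 587 and 453 CPM in ectoderm and 3.85 and 2.47 CPM, then 0.838 and 0.0636 CPM in mesoderm (difference 3.21 ± 0.43, adjusted p = 0.00257). The desmosomal cadherin Dsg2 measured 199 and 177 CPM, then 236 and 222 CPM in ectoderm and 2.33 and 0.687 CPM, then 9 and 6.62 CPM in mesoderm (difference -1.95 ± 0.34, adjusted p = 0.0079). The 2 genes thus went opposite ways in mesoderm with no called change in ectoderm. The desmosome calls came to 1 to 3 more positive (1 without ectoderm E10.5 replicate 1 or ectoderm E10.5 replicate 2 or ectoderm E12.5 replicate 2 or mesoderm E10.5 replicate 1 or mesoderm E12.5 replicate 1) and 1 to 2 more negative with 1 library left out.

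Promoters of 5 genes are shown so that the start regions of genes that moved in different ways can be set side by side: 3 structural genes that rose in ectoderm, a cartilage collagen that rose in mesoderm, and the retinoic acid enzyme gene Cyp26b1 that fell in both layers, with the larger log2 change in ectoderm. Each is the 120 bases before the start of the gene in RefSeq (build GRCm38.p6), written 5′ to 3′ on the gene's own strand, with TATAAA (the core of a TATA box), GGGCGG and its complement CCGCCC (the GC box) in capitals.
Col17a1: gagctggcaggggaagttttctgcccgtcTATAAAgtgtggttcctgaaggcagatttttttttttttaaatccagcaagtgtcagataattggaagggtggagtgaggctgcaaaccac
Krt5: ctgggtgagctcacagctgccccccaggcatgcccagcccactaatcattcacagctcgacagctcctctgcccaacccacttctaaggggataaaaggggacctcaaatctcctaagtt
Gjb2: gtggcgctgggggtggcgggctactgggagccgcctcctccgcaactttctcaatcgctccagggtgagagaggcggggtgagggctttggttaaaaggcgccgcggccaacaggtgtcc
Col9a2: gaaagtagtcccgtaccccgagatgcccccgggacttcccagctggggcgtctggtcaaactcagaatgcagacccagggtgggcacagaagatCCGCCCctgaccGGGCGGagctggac
Cyp26b1: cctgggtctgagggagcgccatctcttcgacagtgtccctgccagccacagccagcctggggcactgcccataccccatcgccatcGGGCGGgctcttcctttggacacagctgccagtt
They lie at chr19:47692043-47692162, minus strand for Col17a1, chr15:101712906-101713025, minus strand for Krt5, chr14:57104703-57104822, minus strand for Gjb2, chr4:121039446-121039565, plus strand for Col9a2 and chr6:84593811-84593930, minus strand for Cyp26b1. The stretches of Krt5 and Gjb2 hold neither motif, that of Col17a1 holds TATAAA 91 bases before the start, that of Col9a2 holds a GC box on each strand, and that of Cyp26b1 holds 1 GC box 34 bases before the start. In windows from 250 bases before to 50 after the start, on either strand, TATAAA was found in 11.8 percent (24 of 203) of promoters of genes that rose in ectoderm and were called more positive there, and in 8.9 percent (60 of 674) of those that rose in mesoderm and were called more negative in ectoderm. It was found in 6.8 percent of tested genes with a matched promoter (743 of 10980) and in 14.2 percent of all 27025 promoters in the table. Beginning 20 to 40 bases before the start on the gene's own strand, TATAAA was found in 0.99 percent (2 of 203) of the first set. The share there was 1.93 percent (13 of 674) of the second set, 1.1 percent (121) of tested genes and 2.22 percent (600) of all promoters. GGGCGG was found in 63.5 and 70.0 percent of the first 2 sets, in 64.9 percent of the tested genes and in 35.9 percent of all promoters. These shares are a description with no test, and a match is not shown to be a working site. The RefSeq start can differ from the gene's end in the count table, as it does for Col17a1, Col9a2 and Cyp26b1. The Col9a2 stretch lies wholly inside the gene as counted (chr4:121039384-121055322). Those of Col17a1 and Cyp26b1 lie partly inside theirs.

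The ridge and limb ectoderm signals were called in both directions in equal number, 8 more positive and 8 more negative of 28 tested. The 2 directions differ in the mesoderm. Each of the 8 positive calls was a trace gene in mesoderm, and 1 of the 8 negative ones was. Limma called 3 more positive and 10 more negative on log2(FPKM + 1), and 2 and 9 on log2(FPKM + 0.1). Among the secreted factors, Wnt7b rose in ectoderm, with 207 and 143 CPM at E10.5 and 634 and 365 CPM at E12.5, and fell in mesoderm, with 3.85 and 1.03 CPM at E10.5 and 1.1 and 0.382 CPM at E12.5 (difference 3.21 ± 0.41, adjusted p = 0.00198). Bmp2, a BMP ligand made by the ridge early and by the digit and interdigit mesenchyme later, did the opposite: it measured 60.5 and 42.1 CPM at E10.5 and 17.7 and 10.2 CPM at E12.5 in ectoderm. Mesoderm held 10.98 and 12.6 CPM at E10.5 and 61.8 and 46.2 CPM at E12.5 (difference -4.07 ± 0.28, adjusted p = 0.000144). At E10.5 both ectoderm values of Bmp2 lay above both mesoderm values, and at E12.5 the order was reversed with no overlap. Wnt5a, a non-canonical WNT ligand of the outgrowing tip, measured 826 and 839 CPM at E10.5 and 411 and 456 CPM at E12.5 in ectoderm. Mesoderm held 503 and 554 CPM at E10.5 and 1180.3 and 1027 CPM at E12.5 (difference -2.01 ± 0.15, adjusted p = 0.000179). Wnt5a too changed order. The ridge factors Fgf8 and Fgf4 fell in ectoderm, Fgf8 from 1549.8 and 876 to 63.1 and 72.5 CPM (log2 change -4.07 ± 0.29) and Fgf4 from 236 and 93.1 to 2.04 and 0.971 CPM. Their traces in mesoderm fell as well, and the difference was not called (difference 1.56 ± 1.07, adjusted p = 0.377 for Fgf8).

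Transcription factors of the ridge and limb ectoderm were called in both directions, and not all of the called ones are named here. Dlx6 measured 31.8 and 43.6 CPM at E10.5 and 11.3 and 19.2 CPM at E12.5 in ectoderm. Mesoderm held 1.46 and 1.92 CPM at E10.5 and 25.6 and 29.1 CPM at E12.5 (difference -5.36 ± 0.25, adjusted p = 3.56e-05). It fell in ectoderm (log2 change -1.33 ± 0.15) and rose in mesoderm (4.03 ± 0.19), and the layers did not overlap at either stage, in opposite order. Its neighbour Dlx5 measured 89.01 and 86.98 CPM at E10.5 and 78.5 and 68.5 CPM at E12.5 in ectoderm. Mesoderm held 13.5 and 15.7 CPM at E10.5 and 90.3 and 78.1 CPM at E12.5 (difference -2.80 ± 0.17, adjusted p = 9.75e-05). Dlx5 was higher in ectoderm at E10.5 and overlapped between layers at E12.5. Both genes are homeobox regulators of the ridge and of early cartilage and lie side by side on chromosome 6. Dlx6 overlaps the antisense transcript Dlx6os1, and without knowledge of strand-aware counting its reads cannot be fully separated from it. Sp9, a zinc finger factor of the ridge, rose in both layers, from 14.4 and 11.6 to 60.1 and 41.1 CPM in ectoderm and from 0.582 and 1.03 to 39.8 and 23.98 CPM in mesoderm (difference -3.49 ± 0.36, adjusted p = 7e-04). Msx2, a homeobox target of BMP, also rose in both, from 194 and 160 to 386 and 277 CPM and from 45.7 and 25.4 to 360.5 and 192 CPM (difference -2.06 ± 0.21, adjusted p = 0.000774). In both genes the log2 change was larger in mesoderm. Sp6, a related ridge factor, fell in both layers, with 538 and 451 CPM, then 299 and 238 CPM in ectoderm and 5.49 and 3.23 CPM, then 0.397 and 0.763 CPM in mesoderm (difference 2.14 ± 0.35, adjusted p = 0.00644). Its mesoderm level was a trace, and on log2(FPKM + 1) values its difference was -0.062 by limma (adjusted p = 0.852). Cd44, a hyaluronan receptor of the ridge, fell in ectoderm from 152 and 170.1 to 32.05 and 41.5 CPM and measured 5.46 and 4.74 CPM, then 11.7 and 5.28 CPM in mesoderm (difference -2.89 ± 0.42, adjusted p = 0.0034). Dropping each library in turn gave 2 to 9 more positive (2 without mesoderm E10.5 replicate 1, 4 without mesoderm E12.5 replicate 1, 5 without ectoderm E10.5 replicate 1) and 7 to 10 more negative for the list of 28.

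**Figure D3:**
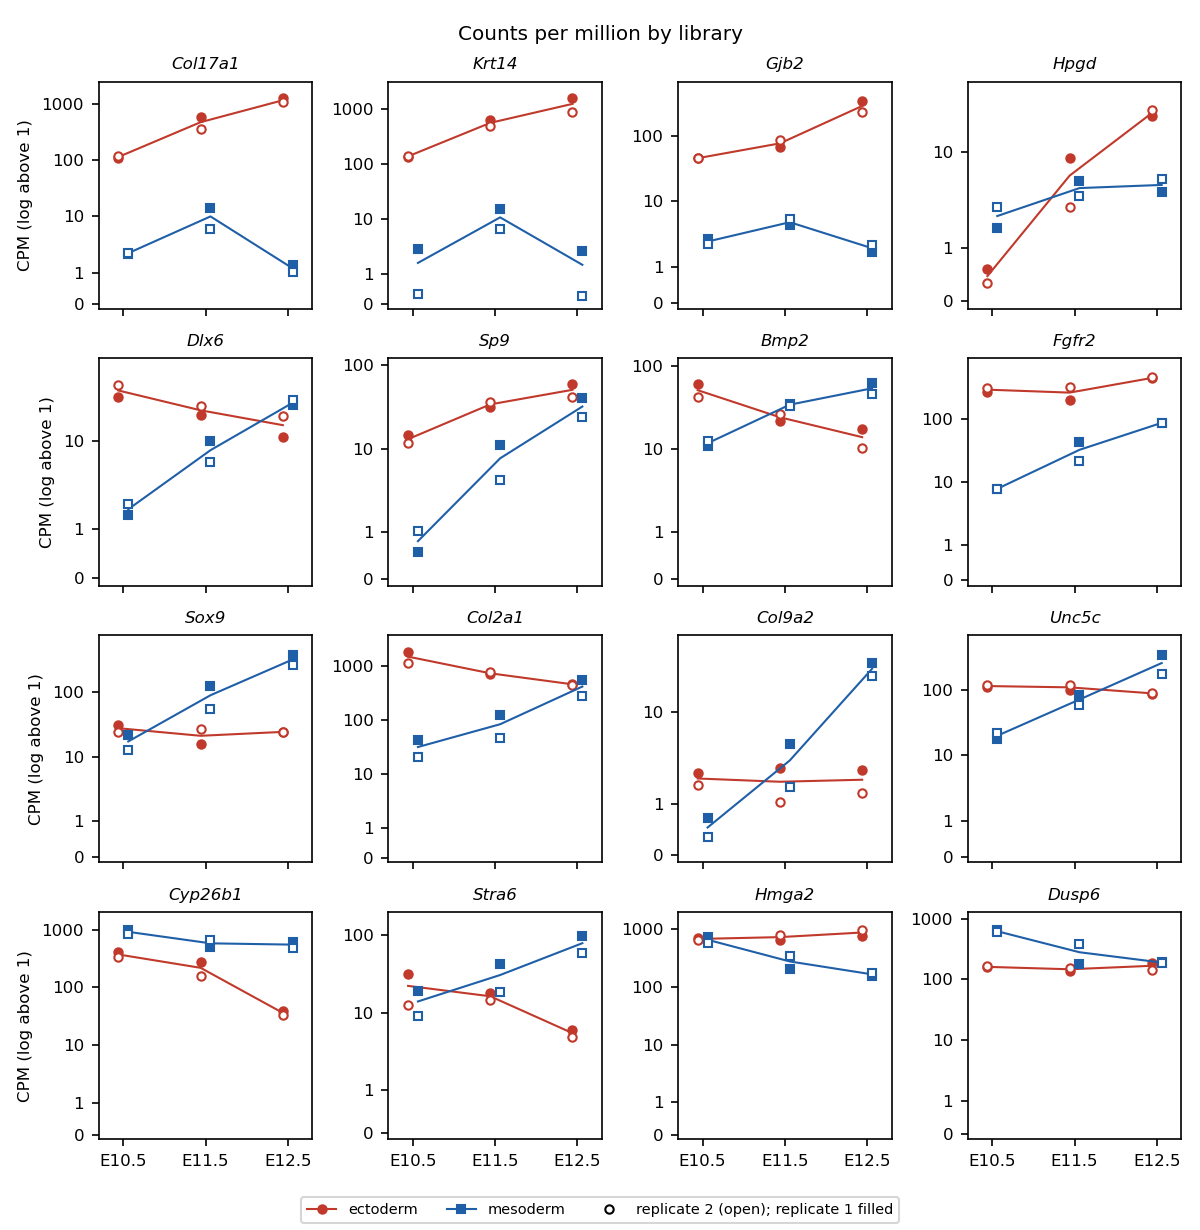
Each panel plots CPM of 1 gene by stage on an axis that is logarithmic above 1, with ectoderm as red circles, mesoderm as blue squares, replicate 1 filled and replicate 2 open, and lines through the means of 2 libraries. Col17a1, Krt14, Gjb2 and Hpgd rise in ectoderm, while Dlx6, Bmp2, Sox9, Col2a1, Unc5c and Stra6 cross or meet, with mesoderm rising. The E11.5 libraries, which the tested contrast does not use, are shown for the path between the stages.

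Cartilage genes were called in 10 of 17 tested members, each more negative in ectoderm against a background of 8.4 percent, with a median difference of -1.76. The list's median change was 2.25 in mesoderm and -0.13 in ectoderm, and 14 members rose in mesoderm. Sox9, the transcription factor that starts the chondrocyte programme (chr11:112782223-112787760), measured 31.4 and 24.1 CPM at E10.5 and 24.3 and 24.3 CPM at E12.5 in ectoderm. Mesoderm held 21.9 and 12.7 CPM at E10.5 and 383 and 264 CPM at E12.5 (difference -4.40 ± 0.24, adjusted p = 6.97e-05). At E10.5 ectoderm was the slightly higher layer, and by E12.5 both mesoderm libraries lay more than an order of magnitude above ectoderm. Col2a1, the main collagen of cartilage fibrils, fell in ectoderm and rose in mesoderm: it measured 1876 and 1145 CPM at E10.5 and 472 and 454 CPM at E12.5 in ectoderm. Mesoderm held 43.1 and 20.5 CPM at E10.5 and 557 and 285 CPM at E12.5 (difference -5.35 ± 0.31, adjusted p = 7.95e-05). The ectoderm values at E10.5 were the highest of the 8, and at E12.5 the layers overlapped. Col9a2, a collagen on the surface of cartilage fibrils, measured 2.15 and 1.62 CPM at E10.5 and 2.36 and 1.29 CPM at E12.5 in ectoderm. Mesoderm held 0.727 and 0.343 CPM at E10.5 and 34.1 and 24.8 CPM at E12.5 (difference -5.80 ± 0.38, adjusted p = 0.000114). Its partner chain Col9a3 measured 7.58 and 6.15 CPM, then 12.7 and 10.9 CPM in ectoderm, and 1.64 and 2.06 CPM, then 89.1 and 64.1 CPM in mesoderm (difference -4.63 ± 0.26, adjusted p = 7.89e-05). Both chains were higher in ectoderm at E10.5 and lower at E12.5, with no overlap at either stage. The matrix protein gene Matn4 held 1 count over both mesoderm libraries at E10.5 and measured 14.9 and 5.79 CPM at E12.5, against 0.689 and 0.777 CPM, then 0.363 and 0.194 CPM in ectoderm (adjusted p = 0.000485), and no fold is given from so few counts. Leaving out single libraries gave 7 to 10 more negative.

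The list of joint, tendon and connective tissue genes had 11 of 22 members called more negative in ectoderm and 1 more positive, with 16 members rising in mesoderm. The count moved with single libraries: leaving them out in turn gave 0 to 1 more positive and 2 to 13 more negative (2 without ectoderm E10.5 replicate 2 or mesoderm E10.5 replicate 1). The fibrillar collagen Col1a2 measured 963 and 602 CPM at E10.5 and 365 and 460.3 CPM at E12.5 in ectoderm. Mesoderm held 926 and 473 CPM at E10.5 and 2826 and 1105 CPM at E12.5 (difference -2.26 ± 0.45, adjusted p = 0.0139; adjusted p = 0.0517 without ectoderm E10.5 replicate 2). Mesoderm E12.5 replicate 1 held a higher level than replicate 2, as it did for Col1a1, with 909.5 and 199.5 CPM. The positive call was Dcn, the proteoglycan decorin, which went from 0 and 0.194 CPM to 24.97 and 10.49 CPM in ectoderm and measured 0.545 and 0.206 CPM at E10.5 and 1.19 and 0.509 CPM at E12.5 in mesoderm (adjusted p = 0.00424; 0.0896 without mesoderm E10.5 replicate 1).

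Hox genes pattern the limb along its length and lie in 4 clusters. In the HoxC cluster 3 of 9 tested genes were called, Hoxc9, Hoxc10 and Hoxc13, each more positive in ectoderm. In ectoderm the 5′ members rose, with Hoxc13 from 34.4 and 32.2 to 124 and 102 CPM and Hoxc10 from 18.2 and 17.1 to 48.9 and 33.01 CPM. Hoxc12 rose there too, from 2.32 and 3.37 to 61.6 and 45.3 CPM, without a called difference (adjusted p = 0.416), and the mesoderm held 1 count at E10.5 and 2 at E12.5. The 3 called genes were trace genes with 14, 11 and 12 counts over the E10.5 mesoderm libraries and 0, 0 and 3 over those at E12.5, so no fold is given, and leaving out single libraries gave 0 to 4 more positive (0 without mesoderm E10.5 replicate 1). Over all genes 13.8 percent were called in either direction. In the HoxA, HoxB and HoxD clusters the calls were all more negative in ectoderm. They were 2 of 11 HoxA (18.2 percent), 4 of 7 HoxB (57.1 percent) and 2 of 8 HoxD genes (25 percent). With 1 library left out they came to 1 to 3 more negative in HoxA, 0 to 2 more negative in HoxB, below the reported 4 in each of the 8 fits, and 1 to 5 more negative (1 without ectoderm E10.5 replicate 1, 4 without mesoderm E10.5 replicate 1, 5 without mesoderm E12.5 replicate 1 or mesoderm E12.5 replicate 2) in HoxD. Hoxa10 measured 19.1 and 28.8 CPM at E10.5 and 3.45 and 4.86 CPM at E12.5 in ectoderm. Mesoderm held 199.5 and 243 CPM at E10.5 and 139 and 149.5 CPM at E12.5 (difference -1.93 ± 0.20, adjusted p = 7e-04). Hoxd13 measured 21.4 and 35.5 CPM at E10.5 and 17.3 and 24.7 CPM at E12.5 in ectoderm. Mesoderm held 422 and 750.1 CPM at E10.5 and 615 and 1087 CPM at E12.5 (difference -0.95 ± 0.14, adjusted p = 0.00434). In the fit of all 16 libraries none of 11 HoxA and 9 HoxD genes was called by edgeR's quasi-likelihood test, with an adjusted p of 0.0875 for Hoxa10 and 0.542 for Hoxd13. With at least 5 CPM required in 2 libraries, only 1 HoxB gene was tested and 0 were called. The HoxA and HoxD calls were trace genes in ectoderm, where the mesenchyme markers fell from 10.1 and 10.3 to 3.07 and 3.41 percent of the mesoderm level. Hox genes can share reads with antisense transcripts where strand is not used in counting.

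**Figure D4:**
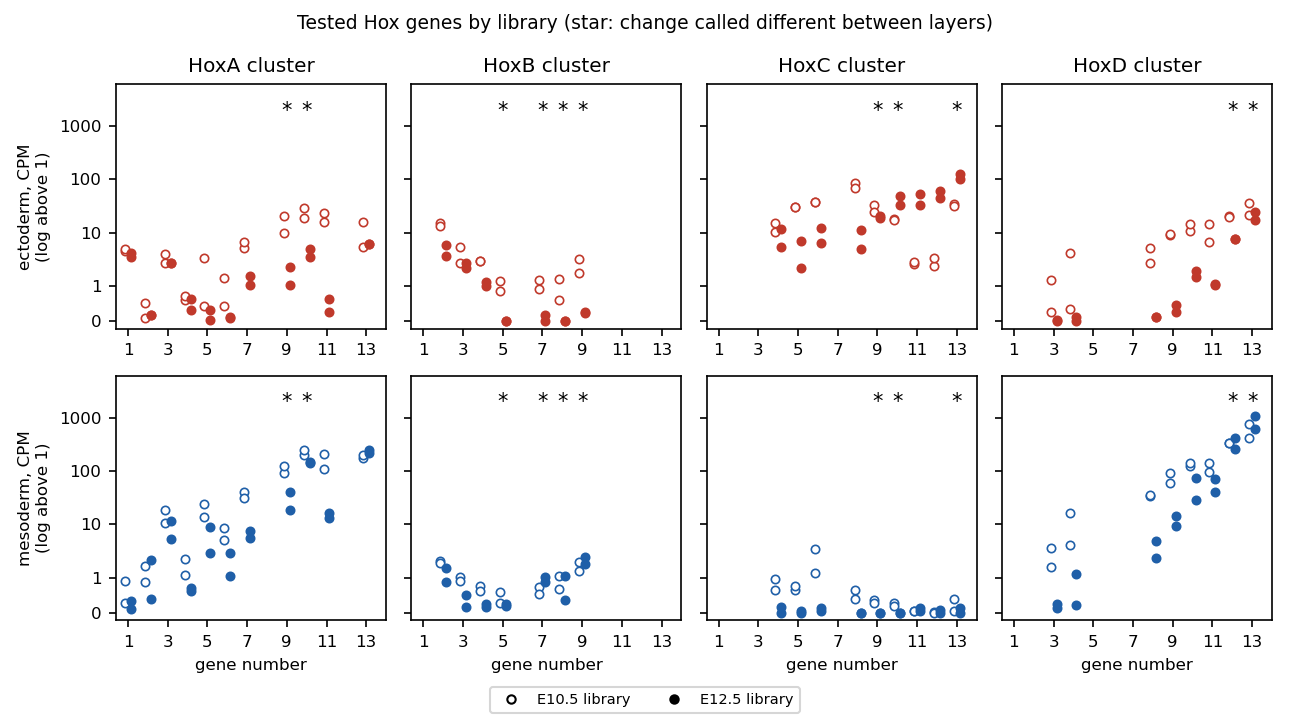
CPM of each tested Hox gene by library is plotted on an axis that is logarithmic above 1, with gene number along each cluster, ectoderm in the upper and mesoderm in the lower row, and E10.5 open and E12.5 filled. Stars mark the genes whose change was called different between layers. In ectoderm the filled points of HoxC genes 10 to 13 lie above the open ones, and those of HoxC genes 4 to 8 lie below or overlap them.

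Limb mesenchyme transcription factors had 13 of 29 members called more negative in ectoderm and 2 more positive. Of the 13, 8 were trace genes in ectoderm, and all but Col3a1 of the mesenchyme markers whose medians are given above are on this list. The part of the fall in these markers in the calls was not tested. Prrx1, a homeobox factor of limb mesenchyme, measured 61.3 and 45.6 CPM at E10.5 and 19.2 and 19.03 CPM at E12.5 in ectoderm. Mesoderm held 432 and 436 CPM at E10.5 and 611 and 665 CPM at E12.5 (difference -2.03 ± 0.19, adjusted p = 0.000457). Tbx3, which is expressed in both layers, measured 126 and 148 CPM at E10.5 and 69.8 and 101 CPM at E12.5 in ectoderm. Mesoderm held 29.2 and 23.5 CPM at E10.5 and 73.6 and 54.8 CPM at E12.5 (difference -1.96 ± 0.30, adjusted p = 0.00443). It was higher in ectoderm at E10.5, and the layers overlapped at E12.5. Lmx1b, the dorsal factor, fell in both layers, with 61.04 and 48.1 CPM, then 9.12 and 14.8 CPM in ectoderm and 248.7 and 239 CPM, then 167 and 148 CPM in mesoderm (difference -1.58 ± 0.28, adjusted p = 0.00856). The 2 positive calls were Meis1 and Meis2, homeobox genes known as markers of the proximal limb. Meis2 measured 111 and 90.9 CPM at E10.5 and 155 and 151 CPM at E12.5 in ectoderm. Mesoderm held 4.58 and 6.18 CPM at E10.5 and 0.662 and 0.89 CPM at E12.5 (difference 3.38 ± 0.31, adjusted p = 0.00045). Meis1 measured 68.4 and 93.5 CPM at E10.5 and 56.5 and 71.3 CPM at E12.5 in ectoderm. Mesoderm held 3.09 and 3.78 CPM at E10.5 and 0.353 and 0.763 CPM at E12.5 (difference 2.35 ± 0.27, adjusted p = 0.0012). Meis2 rose in ectoderm, Meis1 was not called there, and both fell in the distal mesoderm. Both were trace genes in mesoderm. On log2(FPKM + 1) values the difference of Meis1 was 0.44 by limma (adjusted p = 0.167). Dropping each library in turn gave 2 to 3 more positive and 9 to 14 more negative.

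The called receptors and the called feedback inhibitors of fibroblast growth factor signalling went in opposite directions. Other members of both kinds were not called. Of 15 tested genes, 5 were called more positive in ectoderm and 3 more negative. The receptor genes Fgfr2 and Fgfr3 rose in both layers, with the larger log2 change in mesoderm. Fgfr2 measured 267 and 305 CPM at E10.5 and 429.6 and 445 CPM at E12.5 in ectoderm. Mesoderm held 7.75 and 7.76 CPM at E10.5 and 84.4 and 86.5 CPM at E12.5 (difference -2.84 ± 0.13, adjusted p = 3.56e-05). Fgfr3 measured 8.18 and 19.8 CPM at E10.5 and 19.7 and 29.97 CPM at E12.5 in ectoderm. Mesoderm held 3.09 and 5.42 CPM at E10.5 and 19.6 and 42.1 CPM at E12.5 (difference -1.91 ± 0.26, adjusted p = 0.00253). The called feedback inhibitors went the other way. Dusp6, a phosphatase of the ERK kinases, measured 158 and 164 CPM at E10.5 and 189.8 and 145 CPM at E12.5 in ectoderm. Mesoderm held 641 and 605 CPM at E10.5 and 193 and 186 CPM at E12.5 (difference 1.77 ± 0.16, adjusted p = 0.000414). Spry2, a Sprouty inhibitor, measured 78.5 and 79.2 CPM at E10.5 and 92.2 and 79.7 CPM at E12.5 in ectoderm. Mesoderm held 68.8 and 75.7 CPM at E10.5 and 22.6 and 21.4 CPM at E12.5 (difference 1.84 ± 0.15, adjusted p = 0.000325). Both fell in mesoderm with no called change in ectoderm, and for both the mesoderm stages did not overlap. Spred2, another inhibitor of the pathway, rose in ectoderm and fell in mesoderm (116 and 108.5 CPM, then 153 and 132 CPM in ectoderm, 123 and 121 CPM, then 94.95 and 89.2 CPM in mesoderm, difference 0.75 ± 0.13, adjusted p = 0.00696). The ETS factors of this list were called in both directions. Etv1 was on the negative side, with 37.7 and 44.5 CPM, then 19.8 and 31.7 CPM in ectoderm and 6.4 and 8.58 CPM, then 24.2 and 19.1 CPM in mesoderm (difference -2.27 ± 0.31, adjusted p = 0.00259). Another called ETS factor was more positive in ectoderm. The list's calls came to 3 to 7 more positive (3 without ectoderm E12.5 replicate 1) and 3 to 4 more negative with 1 library left out.

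WNT targets and antagonists were called in 9 of 22 members more negative in ectoderm and in 1 more positive. Axin2, the common readout of canonical WNT signalling, measured 212 and 205 CPM at E10.5 and 103 and 114 CPM at E12.5 in ectoderm. Mesoderm held 117 and 119.7 CPM at E10.5 and 163 and 165 CPM at E12.5 (difference -1.41 ± 0.13, adjusted p = 0.000414). It fell in ectoderm and rose in mesoderm, and the order of the layers changed without overlap at either stage. The nuclear effector Lef1 also fell in ectoderm and rose in mesoderm, and was the lower in ectoderm at both stages, with 164 and 149.8 CPM, then 108.3 and 111 CPM in ectoderm and 177 and 193 CPM, then 244 and 228 CPM in mesoderm (difference -0.87 ± 0.13, adjusted p = 0.00452). Notum, a secreted WNT inactivator, fell in ectoderm from 167 and 139.7 to 40.1 and 28.3 CPM and measured 12.2 and 10.4 CPM, then 8.29 and 9.92 CPM in mesoderm (difference -1.85 ± 0.23, adjusted p = 0.00178). Kremen1, a Dickkopf receptor, measured 486 and 499 CPM, then 255 and 289 CPM in ectoderm and 46.98 and 51.97 CPM, then 84.5 and 101 CPM in mesoderm (difference -1.77 ± 0.13, adjusted p = 0.000171). The secreted antagonist Wif1 rose in mesoderm from 13.5 and 12.8 to 355 and 109 CPM and measured 30.8 and 25.8 CPM, then 30.1 and 8.74 CPM in ectoderm (difference -4.70 ± 0.57, adjusted p = 0.0016). The antagonist Dkk1 measured 27.3 and 35.01 CPM, then 13.66 and 13.1 CPM in ectoderm and 14.2 and 9.06 CPM, then 40.1 and 19.5 CPM in mesoderm (difference -2.59 ± 0.41, adjusted p = 0.00501). Wif1 spread widely between replicates at E12.5 in both layers. The count was 0 to 2 more positive and 7 to 11 more negative with 1 library left out.

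The list of BMP response genes, antagonists and ligands gave 8 calls of 18, each more negative in ectoderm, with 14 of the 18 rising in mesoderm. Besides Bmp2 and Msx2, Bambi, a decoy receptor induced by BMP, measured 399 and 386 CPM at E10.5 and 255 and 257 CPM at E12.5 in ectoderm. Mesoderm held 60.04 and 58.4 CPM at E10.5 and 174 and 137 CPM at E12.5 (difference -2.002 ± 0.15, adjusted p = 0.000196). Id2, a direct target, measured 92.5 and 93.3 CPM at E10.5 and 79.6 and 63.1 CPM at E12.5 in ectoderm. Mesoderm held 66.1 and 58.2 CPM at E10.5 and 145 and 106 CPM at E12.5 (difference -1.40 ± 0.17, adjusted p = 0.00167). In both genes ectoderm lay above mesoderm at E10.5. By E12.5 Id2 was lower in ectoderm, and Bambi had come closer while ectoderm stayed above. The ligands Bmp4 and Bmp7 fell in both layers and were not called, with a difference of -0.23 ± 0.13 for Bmp4 and -0.05 ± 0.18 for Bmp7 (adjusted p = 0.286 and 0.884). Leaving out single libraries gave 5 to 10 more negative (5 without ectoderm E10.5 replicate 2).

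The retinoic acid list had 10 of 16 genes called more negative in ectoderm and 1 more positive, 68.8 percent in all. Cyp26b1, the enzyme that degrades retinoic acid in the limb tip (chr6:84571413-84593908), measured 415 and 332 CPM at E10.5 and 38.7 and 33.5 CPM at E12.5 in ectoderm. Mesoderm held 1009.7 and 836 CPM at E10.5 and 617 and 489 CPM at E12.5 (difference -2.62 ± 0.12, adjusted p = 3.56e-05). Both layers fell, with log2 changes of -3.37 ± 0.09 in ectoderm and -0.74 ± 0.08 in mesoderm, and no 2 of the 4 groups overlapped. Stra6, the membrane receptor that takes up retinol, measured 31.8 and 12.49 CPM at E10.5 and 5.99 and 4.86 CPM at E12.5 in ectoderm. Mesoderm held 18.9 and 8.93 CPM at E10.5 and 99.05 and 58.7 CPM at E12.5 (difference -4.49 ± 0.30, adjusted p = 0.000125). It fell in ectoderm and rose in mesoderm, with overlap between layers at E10.5 and none at E12.5. Crabp2, which binds retinoic acid, measured 66.1 and 47.2 CPM, then 17.7 and 11 CPM in ectoderm and 332 and 212 CPM, then 278 and 163 CPM in mesoderm (difference -1.69 ± 0.14, adjusted p = 0.000333). The retinol dehydrogenase Rdh10 measured 28.1 and 27.4 CPM, then 15.3 and 24.3 CPM in ectoderm and 4.69 and 7.76 CPM, then 44.96 and 20.7 CPM in mesoderm (difference -2.95 ± 0.55, adjusted p = 0.0107; adjusted p = 0.0554 without mesoderm E10.5 replicate 1). The positive call, Cyp26a1, rose in ectoderm from 35.5 and 43.3 to 78.95 and 112 CPM while mesoderm held 2 counts at E12.5 (adjusted p = 0.0139; 0.134 without mesoderm E10.5 replicate 1 and 0.0502 without mesoderm E12.5 replicate 1). Mesoderm E12.5 replicate 1 exceeded replicate 2 for Rdh10. Dropping each library in turn gave 0 to 1 more positive and 5 to 9 more negative (5 without ectoderm E10.5 replicate 2 or ectoderm E12.5 replicate 1 or mesoderm E10.5 replicate 1 or mesoderm E12.5 replicate 1).

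Hedgehog signalling genes were called in 6 of 12 members, each more negative in ectoderm. Cdon, a Hedgehog co-receptor, measured 49.1 and 56.95 CPM at E10.5 and 80.9 and 60.7 CPM at E12.5 in ectoderm. Mesoderm held 54.3 and 51.6 CPM at E10.5 and 273 and 204 CPM at E12.5 (difference -1.76 ± 0.22, adjusted p = 0.00178). Hhip, a Hedgehog-binding antagonist, measured 0.775 and 0.712 CPM, then 0.772 and 0.453 CPM in ectoderm and 1.2 and 0.961 CPM, then 7.46 and 8.33 CPM in mesoderm (difference -3.11 ± 0.55, adjusted p = 0.0081). Both rose in mesoderm with no called change in ectoderm. Shh itself, from the posterior mesenchyme, fell from 49.9 and 50.8 to 0.0441 and 0.191 CPM in mesoderm. The calls came to 0 to 1 more positive and 2 to 5 more negative (2 without ectoderm E10.5 replicate 2 or ectoderm E12.5 replicate 1, 3 without mesoderm E10.5 replicate 2) with 1 library left out. In the Notch list 3 of 15 were called (20 percent, against 13.8 percent over all genes), each more positive in ectoderm. This list had a median difference of -0.1, against 0.02 over all genes. With single libraries left out it had 2 to 3 more positive and 0 to 2 more negative (1 without mesoderm E10.5 replicate 1 and 2 without mesoderm E12.5 replicate 2). The ligand Jag1 measured 69.8 and 116 CPM at E10.5 and 77.7 and 101 CPM at E12.5 in ectoderm. Mesoderm held 149 and 212 CPM at E10.5 and 25.8 and 61.6 CPM at E12.5 (difference 2.11 ± 0.26, adjusted p = 0.00174). The feedback gene Nrarp measured 142 and 112 CPM, then 177 and 136 CPM in ectoderm and 32.3 and 20.2 CPM, then 14.9 and 11.6 CPM in mesoderm (difference 1.28 ± 0.16, adjusted p = 0.00178). Both fell in mesoderm only, by the test, and Jag1 changed order between the layers.

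Axon guidance cues and receptors, which also steer mesenchyme and vessels, had 8 of 25 members called more negative in ectoderm and 2 more positive. Unc5c, a netrin receptor, measured 110.2 and 119 CPM at E10.5 and 87.9 and 89.3 CPM at E12.5 in ectoderm. Mesoderm held 17.8 and 22.04 CPM at E10.5 and 342 and 173 CPM at E12.5 (difference -4.05 ± 0.38, adjusted p = 0.000485). Robo2, a receptor for Slit ligands, measured 12.9 and 8.48 CPM at E10.5 and 19.6 and 16.8 CPM at E12.5 in ectoderm. Mesoderm held 34.4 and 33.98 CPM at E10.5 and 279.8 and 284 CPM at E12.5 (difference -2.26 ± 0.21, adjusted p = 0.000485). Both rose in mesoderm, and Robo2 also in ectoderm. The ligand Slit3 fell in both layers, with 44.1 and 42.3 CPM, then 6.67 and 6.15 CPM in ectoderm and 222 and 182 CPM, then 119.8 and 111 CPM in mesoderm (difference -1.95 ± 0.15, adjusted p = 0.000196). The semaphorin Sema3c measured 55.9 and 44.1 CPM, then 41.04 and 40.6 CPM in ectoderm and 2.58 and 4.67 CPM, then 15.7 and 14.6 CPM in mesoderm (difference -2.43 ± 0.32, adjusted p = 0.00216). Sema3d measured 43.4 and 42.6 CPM, then 149 and 122 CPM in ectoderm and 1.46 and 1.03 CPM, then 18.3 and 23.9 CPM in mesoderm (difference -2.36 ± 0.29, adjusted p = 0.0017). Sema3d rose in both layers, Sema3c in mesoderm only by the test. The positive calls were Ntn4, a basement membrane netrin that rose in ectoderm (8.52 and 10.2 CPM, then 41.7 and 40.5 CPM) and measured 2.04 and 1.72 CPM, then 1.94 and 2.73 CPM in mesoderm (difference 1.88 ± 0.30, adjusted p = 0.00521), and Epha4, which fell in mesoderm (449 and 449 CPM, then 188 and 263 CPM) and measured 114 and 162 CPM, then 169.8 and 188 CPM in ectoderm (difference 1.41 ± 0.19, adjusted p = 0.00252). The count was 2 more positive and 7 to 11 more negative with 1 library left out.

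Genes of the Lin28 axis, which mark early developmental timing, were called in 5 of 11 members, each more positive in ectoderm, and 10 of the 11 fell in mesoderm. Hmga2, a chromatin protein gene held up by Lin28, measured 702 and 654 CPM at E10.5 and 770 and 984 CPM at E12.5 in ectoderm. Mesoderm held 745 and 568 CPM at E10.5 and 155 and 176 CPM at E12.5 (difference 2.36 ± 0.23, adjusted p = 0.000531). At E10.5 the layers overlapped, and at E12.5 ectoderm was the higher in both replicates. Hmga1 measured 442 and 293 CPM, then 397 and 202 CPM in ectoderm and 354 and 240 CPM, then 141 and 95.3 CPM in mesoderm (difference 0.99 ± 0.16, adjusted p = 0.00636). This list gave 2 to 9 more positive (2 without mesoderm E10.5 replicate 1, 9 without mesoderm E12.5 replicate 2) with 1 library left out. Cell cycle inhibitors were called in 6 of 13 members, each more negative in ectoderm, and 7 rose in mesoderm. Cdkn1c (p57) measured 256 and 139 CPM at E10.5 and 162 and 107 CPM at E12.5 in ectoderm. Mesoderm held 275 and 142 CPM at E10.5 and 517 and 353 CPM at E12.5 (difference -1.63 ± 0.17, adjusted p = 0.000698). The p53 target Trp53inp1 measured 73.8 and 97.8 CPM, then 59.3 and 105.2 CPM in ectoderm and 13.3 and 17.9 CPM, then 44.1 and 73.3 CPM in mesoderm (difference -1.98 ± 0.18, adjusted p = 0.000461). Cell division genes gave 3 calls of 28, 1 more positive and 2 more negative, a share of 10.7 percent near the 13.8 percent over all genes. With 1 library left out the inhibitors gave 3 to 7 more negative (3 without ectoderm E12.5 replicate 1 or mesoderm E10.5 replicate 1 or mesoderm E12.5 replicate 1). Ccnd2, a D cyclin, measured 1023 and 948 CPM, then 910.5 and 874 CPM in ectoderm and 604 and 646 CPM, then 1073 and 1179.5 CPM in mesoderm (difference -0.99 ± 0.13, adjusted p = 0.00208).

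Outside these lists, the genes below were among those with the largest difference in 1 direction, in their class of change or among genes whose order of layers turned over. Adamts2, a procollagen protease, measured 11.97 and 8.61 CPM at E10.5 and 1.14 and 0.453 CPM at E12.5 in ectoderm. Mesoderm held 0.727 and 0.618 CPM at E10.5 and 5.34 and 2.8 CPM at E12.5 (difference -6.30 ± 0.47, adjusted p = 0.000196). Trhde, a peptidase, measured 16.8 and 21.4 CPM at E10.5 and 1.63 and 0.777 CPM at E12.5 in ectoderm. Mesoderm held 0.0364 and 0.275 CPM at E10.5 and 1.24 and 2.73 CPM at E12.5 (difference -7.73 ± 0.85, adjusted p = 0.000971). The cadherin Cdh8 measured 6.63 and 9.51 CPM, then 0.999 and 1.94 CPM in ectoderm and 0.0727 and 0.0687 CPM, then 5.65 and 5.41 CPM in mesoderm (adjusted p = 0.000144), and its 3 counts over the E10.5 mesoderm libraries allow no fold. In Adamts2 and Cdh8 ectoderm was the higher layer at E10.5 and the lower at E12.5. Irx1, an Iroquois homeobox gene, and Trhde each had 5 counts over the E10.5 mesoderm libraries, so the size of their differences rests on few counts. Irx1 rose in mesoderm from 0.145 and 0.0687 to 18.2 and 15.1 CPM against 2.58 and 3.24 CPM, then 4.45 and 5.63 CPM in ectoderm (difference -6.28 ± 0.50, adjusted p = 0.00024). The opposite was seen in Dmd, the dystrophin gene, which rose in ectoderm and fell in mesoderm, with 6.2 and 8.67 CPM at E10.5 and 19.7 and 34.95 CPM at E12.5 in ectoderm. Mesoderm held 20.6 and 19.6 CPM at E10.5 and 4.1 and 4.77 CPM at E12.5 (difference 4.05 ± 0.32, adjusted p = 0.00024). Hpgd, the enzyme that inactivates prostaglandins, rose in both layers: it measured 0.603 and 0.324 CPM at E10.5 and 23.8 and 27.4 CPM at E12.5 in ectoderm. Mesoderm held 1.6 and 2.68 CPM at E10.5 and 3.84 and 5.22 CPM at E12.5 (difference 4.72 ± 0.45, adjusted p = 0.000531). Dmd and Hpgd were both lower in ectoderm at E10.5 and higher at E12.5. Among genes that fell in both layers, the tubulin Tubb6 measured 341 and 205 CPM, then 8.94 and 8.16 CPM in ectoderm and 56.9 and 38.5 CPM, then 29.8 and 18 CPM in mesoderm (difference -3.96 ± 0.21, adjusted p = 6.15e-05). The sphingomyelinase Smpd3 measured 189.7 and 145 CPM, then 8.9 and 5.57 CPM in ectoderm and 1.6 and 1.58 CPM, then 0.618 and 0.509 CPM in mesoderm (difference -3.08 ± 0.37, adjusted p = 0.00152). For both the fall in ectoderm was the larger.

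Other cell types were followed through lists of their markers. By edgeR's quasi-likelihood test none of 20 endothelial, 15 erythroid, 18 macrophage and 6 muscle genes was called, and 4, 1, 3 and 1 of them had an unadjusted p under 0.05. Their median differences were -0.83, -1.45, -1.51 and -0.62, against 0.02 over all genes. Limma on log2(FPKM + 1) called 3 erythroid genes more positive, and 1 endothelial and 1 macrophage gene more negative. DESeq2 called 2, 0, 1 and 0, each more negative in ectoderm. With 1 library left out edgeR called up to 4 endothelial genes (4 without ectoderm E10.5 replicate 1), 2 erythroid, 3 macrophage and 1 muscle gene. The summed level of the endothelial list in ectoderm ran from 14.6 to 32.4 CPM over the 4 libraries, against 619.5 to 1097.8 CPM in mesoderm. In the list of melanoblast, glia and Merkel cell genes, 1 of 8 was called more positive, Dct of the melanin pathway, which rose in ectoderm (0.516 and 0.582 CPM, then 13.03 and 8.09 CPM) and in mesoderm (0.909 and 0.892 CPM, then 2.25 and 2.16 CPM) (difference 2.90 ± 0.50, adjusted p = 0.00776), and 3 more negative. Of these, Erbb3, which ectoderm itself expressed, measured 102 and 108.5 CPM, then 176 and 183 CPM there and 1.46 and 1.17 CPM, then 12.4 and 17.9 CPM in mesoderm (difference -2.67 ± 0.25, adjusted p = 0.000476). The receptor Kit measured 22.99 and 19.9 CPM, then 20.4 and 18.3 CPM in ectoderm and 18.9 and 18.3 CPM, then 46.3 and 52.6 CPM in mesoderm (difference -1.55 ± 0.18, adjusted p = 0.00141). Antigen presentation and interferon genes were called in 5 of 14 members more negative and 1 more positive, and 10 of the 14 rose in mesoderm. Macrophage markers moved with them: 11 of 18 rose in mesoderm, with a median log2 change of 1.41 there and 0.17 in ectoderm. Their part in the antigen presentation calls was not tested. Ifitm3 measured 66.5 and 41.7 CPM at E10.5 and 36.6 and 23.2 CPM at E12.5 in ectoderm. Mesoderm held 10 and 6.59 CPM at E10.5 and 30.6 and 17.7 CPM at E12.5 (difference -2.38 ± 0.16, adjusted p = 0.000116). The lists for stress response after dissociation (1 more positive and 2 more negative of 19), glycolysis (1 and 2 of 21), imprinted genes (2 and 3 of 21) and skin appendages (2 and 3 of 16) had shares of 15.8, 14.3, 23.8 and 31.2 percent, against 13.8 percent over all genes. The cholesterol synthesis list had 1 more positive and 1 more negative of 16. Single libraries moved these counts. The stress list had no call without mesoderm E10.5 replicate 1 or mesoderm E12.5 replicate 1, and 4 in each direction without mesoderm E12.5 replicate 2. The glycolysis list had none without ectoderm E10.5 replicate 1 or mesoderm E10.5 replicate 1, and at most 2 more positive and 3 more negative. The imprinted list had 0 to 2 more positive (0 without ectoderm E10.5 replicate 1) and 1 to 4 more negative (1 without ectoderm E12.5 replicate 1). The skin appendage list had 0 to 2 more positive (0 without ectoderm E10.5 replicate 2 or ectoderm E12.5 replicate 1) and 2 to 4 more negative. The cholesterol list had no call in these fits but 1 more positive without mesoderm E12.5 replicate 2. Leaving out single libraries gave 1 more positive and 2 to 6 more negative (2 without ectoderm E10.5 replicate 1 or ectoderm E10.5 replicate 2 or ectoderm E12.5 replicate 1 or mesoderm E10.5 replicate 1 or mesoderm E12.5 replicate 1) for the antigen presentation list.

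The 2-day difference had the same sign in replicate 1 and in replicate 2 for 2052 of the 2062 called genes (99.5 percent), a share that the choice of called genes raises by itself, and for 73.5 percent of all tested genes. Tested day by day in a fit of all 16 libraries (15518 genes), 104 genes (0.67 percent) differed between layers in the change from E10.5 to E11.5 and 295 (1.9 percent) in the change from E11.5 to E12.5. In this fit the change from E9.5 to E10.5 differed in 1144 genes (7.37 percent), and the comparisons share the libraries of the stage between them. Leaving out ectoderm E11.5 replicate 2 raised the first-day count to 500 and the second-day count to 670. The lowest counts were 9 for the first day, with mesoderm E10.5 replicate 1 left out, and 58 for the second, with ectoderm E12.5 replicate 1 left out. Of the 2062 genes, 97 were called over the first day, 261 over the second and 20 over both, in the direction of the 2-day difference. The E11.5 ectoderm libraries stood apart from each other, with mesenchyme markers at 33.5 and 6.6 percent of the mesoderm level, so the split between days rests on unequal libraries. For Dlx6 the difference was -3.04 over the first day (adjusted p = 0.012) and -2.31 over the second (adjusted p = 0.0127). For Dmd it was 2.06 over the first day (adjusted p = 0.023) and 1.99 over the second (adjusted p = 0.0151). Col17a1 was called over the second day, with -0.20 over the first day (adjusted p = 0.916) and 4.38 over the second (adjusted p = 0.000588). In ectoderm Col17a1 measured 111 and 117 CPM at E10.5, 590.9 and 356.2 CPM at E11.5 and 1252 and 1071 CPM at E12.5. Its level there thus rose over both days. The level of Col17a1 in mesoderm was higher at E11.5 (14.04 and 5.96 CPM) than at E10.5 or E12.5. Cyp26b1 showed -0.16 over the first day (adjusted p = 0.898) and -2.47 over the second (adjusted p = 0.0017).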

How the data were processed

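Whole-gene counts and FPKM values of 16 polyA libraries were deposited by the authors. Per the submitters' processing notes the genome was mm10 and the tools named are bedtools 2.27.1, Cufflinks 2.2.1, STAR 2.6.0c and cutadapt 1.16. The gene counter and its strand setting are not given in the sources used here. The deposited counts are raw counts per gene, and the deposited FPKM values served only for an alternative with limma. The count table has 53800 genes, 26237 of them with a count in the 8 libraries, and 0 other per-sample columns were left aside.

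The counts of the 8 libraries were fitted with edgeR 4.0.16 in R 4.3.3 (quasi-likelihood F test, TMM scaling, filterByExpr, 4 groups plus the replicate number, Benjamini-Hochberg adjusted p under 0.05). This left 14977 genes, 3 residual degrees of freedom and 5.45 prior ones. Named genes were list members or, outside the lists, the 12 with the largest difference in each direction, the 6 largest of each class and the 6 largest whose layer order turned over, with at least 5 CPM in 1 group and the same sign in both replicates. The comparison and the 35 gene lists were chosen with earlier results of these data known. Deviations from the group means of same-numbered libraries correlated across genes with r = 0.77 and 0.721 between layers of the same embryo batch and with 0.574 to 0.699 between other groups, and the labels give the shared batches, so the number was kept as a block. A group with 3 counts or fewer over its libraries gets no fold. Alternatives were other scalings, filters, blocks, DESeq2 1.42.0, limma 3.58.1 on FPKM, all 16 libraries, a fold threshold of 1.5, and each library left out. In simulated data for this contrast (14600 genes), 10 percent of genes changed 1.5-fold, 72 percent changed 2-fold and 100 percent changed 4-fold or 8-fold were recovered, and 15 unchanged genes were called (0.105 percent). The simulated counts held no replicate or kit effect. Their changed genes had a mean above 5 CPM and lay above 1 CPM in each group but ectoderm E12.5. Recovery with a replicate effect or at lower levels was not tested. No 2 libraries held identical values. A few list members are counted but not reported here by name.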

Additional observations from a re-analysis of the deposited data

Results flagged for a closer look

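The change from E10.5 to E12.5 differed between ectoderm and mesoderm in 2062 genes by the test of the difference itself. In 66 of them a called rise in ectoderm met a called fall in mesoderm, and in 210 a called fall in ectoderm met a called rise in mesoderm. Among single genes described above, the difference between the layers was -5.36 on the log2 scale for Dlx6, -4.07 for Bmp2 and -4.49 for Stra6, which fell in ectoderm and rose in mesoderm. It was 3.21 for Wnt7b and 4.20 for Col17a1, which rose in ectoderm and fell from low levels in mesoderm. It was -2.62 for Cyp26b1, which fell in both layers.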

How the results depend on the processing

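The replicate block mattered most among the settings of the fit. With no replicate block, the layer difference in change was called in 289 genes (57 more positive and 232 more negative in ectoderm), the ectoderm change in 491, the mesoderm change in 1007, the layers at E10.5 in 3631 and at E12.5 in 3594, and the first and second day in 4 and 17. The cause was not tested. With the embryo batch as the block 2488 genes were called, with DESeq2 2362, with all 16 libraries 1693 and with no filter 2871. A fold threshold of 1.5 called 777 genes (172 and 605), since it tests against a larger change, and limma on log2(FPKM + 0.1) called 465 more positive. With 1 library left out, the calls ranged from 935 to 2537 (more positive 269 to 1172, more negative 666 to 1365), for ectoderm from 951 to 1572, for mesoderm from 2157 to 4771, for the layers at E10.5 from 5336 to 6236 and at E12.5 from 4740 to 6096, and for the first and second day from 9 to 500 and from 58 to 670. These fits have fewer samples, and the lone library of a group is assumed to vary like the others. Of 89 named genes, 39 were not called without the block, 7 with all 16 libraries, 6 with the fold threshold, 10 and 3 with limma on log2(FPKM + 1) and log2(FPKM + 0.1), and 1, Krt14, with DESeq2 (adjusted p = 0.15). St14 (-0.54) and Sp6 (-0.062), 2 of those 10, turned their sign with limma on log2(FPKM + 1). At this depth and replication changes of 1.5-fold were mostly missed in simulated data, which held no replicate or kit effect.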
